A study of Mus musculus with 14 samples.

Results

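The 46 loci described here surround Zcchc8 on mouse chromosome 5. They are the loci with a gene name whose range in the authors' tables lay wholly within 1 Mb of either end of the Zcchc8 locus, without Zcchc8 itself. A level of at least 0.5 FPKM (fragments per kilobase of transcript, scaled to the depth of a library, so a level per length) in at least 3 of 14 libraries was also required. They were 46 of 85 named loci in the window and belonged to the 18217 loci tested among 67811 in the tables. The members were thus chosen by position and by their FPKM levels, which are a description and support no result. Polyadenylated RNA had been sequenced from whole embryonic heads, brain included, taken at E12.5. All embryos had the C57BL/6J background, and they differed in the genotype of Zcchc8. There were 5 Zcchc8+/+ libraries (WT1 to WT5), 3 Zcchc8+/- libraries (HET3 to HET5) and 6 Zcchc8-/- libraries (KO1 to KO6). What was altered in the Zcchc8 gene, how the allele was made and how many crosses followed is not stated in the labels. The question addressed was whether RNA of neighbouring genes differed between genotypes, and whether any difference depended on the distance from the altered gene.

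ZCCHC8 holds together the nuclear exosome targeting complex, joining the RNA helicase MTR4 to the RNA-binding protein RBM7. The complex delivers unprocessed transcripts of the nucleus to exosome degradation, among them promoter upstream transcripts that run antisense to a gene from the same promoter region. Neighbours of an altered gene are examined in knockout animals because an altered allele can carry changes into the flanking DNA.

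The members spanned housekeeping, chromatin and transport genes as well as loci known only by the name of a sequenced clone. They fell on 26 distinct ranges, because the authors' tables give overlapping or adjoining genes 1 common range. Of these ranges, 12 were shared by several members and held 32 of them, so a distance below is that of the range and not of the gene's own start. There were 22 members on the lower-coordinate side of Zcchc8 and 24 on the higher-coordinate side. WT means ran from 0.0796 to 284.6 FPKM with a median of 10.9, and 26 members had a WT mean of at least 10 FPKM. At the edges of the window, P2rx4 (122707225 to 122729738, mm10) lay just inside and P2rx7 (122643911 to 122691432) just outside. On the other side, the range of Ddx55, Gtf2h3 and Eif2b1 (124552864 to 124597680) lay just inside. The Atp6v0a2 and Tctn2 locus (124598749 to 124725079) lay just outside.

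Clone names (RP23, RP24 or AC followed by a number) were the sole names of 9 members, and 5 of them were called higher in KO, so the transcripts annotated at their ranges are shown first. In GENCODE M21 no gene carries these clone names, and the files do not pair them with GENCODE genes. In 3 of the 5 ranges an uncharacterised transcript of the plus strand sets the upper end of the range, beside or across the 5′ end of a coding gene on the minus strand. Gm43034 (124531133 to 124532496) overlaps Rilpl1 by 259 bases, and besides Rilpl1 and Snrnp35 it is the sole GENCODE gene in the range of RP23-311A21.2. Gm37415 (124424697 to 124426879) overlaps Sbno1 by 1305 bases, and besides Sbno1 and Gm27486 it is the sole GENCODE gene in the range of RP23-180G16.1. Gm43797 (123684775 to 123685306) begins 156 bases from Clip1, with no overlap, and is 1 of several candidates for RP23-121M13.4. The first 120 bases of Gm43797 and a stretch of 120 bases across the 5′ end of Rilpl1 or Sbno1 follow, read on the plus strand from the GENCODE M21 transcripts. Capitals mark the 30 bases that lie inside the coding neighbour, on its opposite strand.
Gm43797, chr5:123684775-123684894, none inside Clip1: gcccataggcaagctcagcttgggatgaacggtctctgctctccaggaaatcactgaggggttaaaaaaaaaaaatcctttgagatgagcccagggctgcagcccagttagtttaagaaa
Gm43034, chr5:124531362-124531481, leaving Rilpl1: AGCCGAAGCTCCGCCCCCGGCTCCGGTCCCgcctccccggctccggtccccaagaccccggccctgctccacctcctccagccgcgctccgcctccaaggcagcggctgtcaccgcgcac
Gm37415, chr5:124425972-124426091, leaving Sbno1: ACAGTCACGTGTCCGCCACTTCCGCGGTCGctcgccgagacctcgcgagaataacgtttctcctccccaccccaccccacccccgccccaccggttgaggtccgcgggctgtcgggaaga
The remaining pair of called clone-named loci lay in ranges whose lower end is set by a minus-strand transcript that overlaps a plus-strand coding gene. For AC113504.5 this is Gm15860 (123332726 to 123344437), which shares 604 bases with Bcl7a. For AC113504.2 it is Gm15747 (123393649 to 123397957), which shares 3160 bases with Mlxip. Other GENCODE genes lie in both ranges, so which of them each clone name stands for could not be settled. The libraries were made with a kit that keeps strand, but no label states whether the authors' counting used it. Reads of antisense partners may therefore not have been kept apart.

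Zcchc8 itself (123698294 to 123721100) followed the labels. Its level was 40.8, 38.1, 40.8, 36.6 and 42.3 FPKM in the WT libraries and 26.0, 24.0 and 27.2 in the HET libraries. In KO it ran from 9.27 through a median of 15.1 to 20.6 FPKM. No group overlapped another. KO retained 39.1% of the WT mean and HET 64.8%. KO differed from WT by -1.39 log2 (SE 0.15, limma adjusted p = 2.1e-06, two-sided exact permutation p = 0.00216). HET differed from WT by -0.62 log2, with a limma adjusted p of 1 over all tested loci, an adjusted p of 0.0177 in a fit of these groups alone, and a two-sided exact permutation p of 0.0179. Which part of the transcript the KO reads came from cannot be read from values per locus.

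In KO libraries more loci were detected than in the others: 22666 to 25272 loci reached 0.1 FPKM in KO, against 20109 to 20543 in WT and 19927 to 20642 in HET. KO1 and KO3 had the lowest median correlations with their own group, at 0.953 and 0.952 against 0.956 to 0.960 in the other KO libraries, and were the lowest of the 6 KO libraries for 13 and 18 of 45 members. Summed neural markers (6 of 7 listed genes found, none at 0 in all libraries) were 464 to 537 FPKM in WT, 482 to 516 in HET and 437 to 593 in KO. Summed markers of head mesenchyme (5 of 5) were 370.3 to 438.5 in WT, 389.5 to 407.7 in HET and 290.6 to 405.0 in KO. Summed erythroid markers (5 of 5) were 4865 to 8857 FPKM in WT, 5696 to 9451 in HET and 6955 to 9574 in KO. Endothelial markers (3 of 3) summed to 51.7 to 60.6, 49.8 to 57.0 and 49.7 to 62.2, and macrophage markers (3 of 3) to 15.6 to 18.2, 15.8 to 18.1 and 13.3 to 18.4. Liver, heart and trunk markers summed to at most 1.74, 1.58 and 0.0601 FPKM in any library. These are bulk heads, so fewer cells of a type and less RNA per cell cannot be told apart. The part of cell composition in the differences below was not tested.

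Against WT, 7 of the 46 members differed in KO, 6 higher and 1 lower. Calls are those with an adjusted p under 0.05 from limma-trend on log2(FPKM + 0.1), over all tested loci. The members' 15.2% stood beside a background of 24.6% of all tested loci, of which 19.0% were higher and 5.61% lower. Among named loci the background was 19.5%, so the share of members called was not above that of named loci elsewhere. Without adjustment, 11 of the 46 members had a limma p under 0.05. The share of all tested loci at that threshold is not given, but it is at least the 24.6% called after adjustment. The members' median log2 difference was -0.02, and that of all tested loci was -0.00. A difference within 0.2 log2 was measured for 35 members. For 33 members the 95% interval of the difference lay within 0.5 log2 on either side of 0. The call counts depended on the scaling: 6 higher and 1 lower became 4 and 4 after quantile normalization. They became 22 and 0 in the authors' own matrix, in which the median of all tested loci was itself shifted by 0.20 log2. The share of all tested loci called under these other scalings is not given here. Whether the members stood above or below it cannot be read from these counts. Leaving out KO3 gave 8 higher and 2 lower, and leaving out KO1 and KO3 together 8 and 1. Under all 4 scalings tried, 4 members were higher, namely RP23-311A21.2, RP23-121M13.4, AC113504.5 and the Setd1b locus, and none was lower under every one. Of these 4, only AC113504.5 and the Setd1b locus passed the level rule without the KO libraries.

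The coding genes closest to Zcchc8 kept levels near those of WT in KO heads. The clone-named RP23-121M13.4, in the Clip1 range, was higher in KO by 2.85 log2, and it passed the level rule only through KO libraries. An unnamed locus beside the 5′ end of Zcchc8, not a member, was also higher in KO. Both are described below. Rsrc2, which encodes an arginine- and serine-rich coiled-coil protein linked to RNA processing, is the nearest, at 7.33 kb on the higher-coordinate side (123728426 to 123749414). Its WT levels were 82.5, 82.8, 85.2, 85.2 and 90.3 FPKM. In HET they were 76.5, 74.2 and 76.3 FPKM, and in KO 76.1 at the lowest, 80.9 at the median and 91.8 at the highest. All HET libraries lay below all WT libraries, while KO and WT overlapped. The KO difference was -0.06 log2 (95% interval -0.16 to 0.03, limma adjusted p = 0.367). Without KO3, the highest KO library, it was -0.10 with a limma adjusted p of 0.0466. The HET difference was -0.17 log2 (95% interval -0.29 to -0.05), with an unadjusted limma p of 0.00843 and an adjusted p of 1.

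Clip1, the microtubule plus-end binding protein CLIP-170, lies 13 kb away on the lower-coordinate side (123577795 to 123685306). It measured 24.8, 24.1, 27.4, 24.0 and 24.1 FPKM in WT and 24.8, 22.4 and 23.6 in HET. KO libraries ran from 21.8 through 23.6 to 26.3 FPKM, within or near the WT range. The KO difference was -0.06 log2 (95% interval -0.18 to 0.06, limma adjusted p = 0.511). Kntc1, a kinetochore protein of the spindle checkpoint, lies 28.6 kb away, with its start 301 bases from that of Rsrc2 on the opposite strand. Its WT levels were 7.89, 7.67, 7.61, 7.73 and 7.99 FPKM and its HET levels 7.47, 7.54 and 7.65. In KO it ran from 7.89 through 8.38 to 8.99 FPKM, so that only KO3 lay within the WT range. The KO difference from WT was 0.12 log2 (SE 0.04) and missed the threshold with a limma adjusted p of 0.0774. It passed without KO3 (0.13 log2, limma adjusted p = 0.0259). Against HET it was called higher by 0.16 log2 (limma adjusted p = 0.0422), a call that 19 of the 26 alternatives ended.

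From 100 to 300 kb no coding locus was called against WT. The locus of Diablo, a mitochondrial antagonist of apoptosis inhibitors, and Vps33a, a subunit of the tethering complexes of late endosomes, lies 125 kb away. Its levels were 57.9 to 62.4 FPKM in WT, 56.9 to 58.7 in HET and 57.7 to 61.1 in KO, and the KO difference was -0.01 log2 (95% interval -0.09 to 0.06). B3gnt4, a glycosyltransferase counted together with AC157931.3 in the same range, was low in all groups. It measured 0.754, 0.850, 0.855, 1.12 and 0.998 FPKM in WT, 0.758, 0.717 and 0.768 in HET, and 0.896 through 1.22 to 1.65 in KO. Every KO library was above every HET library, and KO overlapped WT. It was called higher in KO against HET (0.60 log2, SE 0.18, limma adjusted p = 0.0233) and not against WT (0.35 log2, limma adjusted p = 0.115). Leaving out any 1 HET library ended the first call, and quantile normalization turned its direction (-0.10 log2, limma adjusted p = 0.757).

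Mlxip, the glucose-responsive transcription factor MondoA, had means of 12.2, 12.9 and 11.8 FPKM in WT, HET and KO at 240 kb (-0.04 log2 in KO against WT, and 0.25 in the authors' matrix with a limma adjusted p of 0.0111). On the other side, the locus of the translation factor Denr and of Ccdc62, at 186 kb, had means of 54.2, 52.4 and 59.5 FPKM. KO3 was the highest KO library there, at 71.8 FPKM, and the KO difference was 0.13 log2 (limma adjusted p = 0.276). Hip1r, which links clathrin coats to actin, and Vps37b, a subunit of the ESCRT-I sorting complex, share a range at 253 kb. Their KO differences were -0.12 and -0.03 log2. KO3 was their lowest library, at 3.48 and 18.8 FPKM against WT means of 6.14 and 24.5. None of these 4 was called in any comparison on the FPKM values as deposited. The plot of levels relative to WT shows Zcchc8 in order of genotype and its neighbours around 100%, apart from the low B3gnt4 locus.

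**Figure D1:**
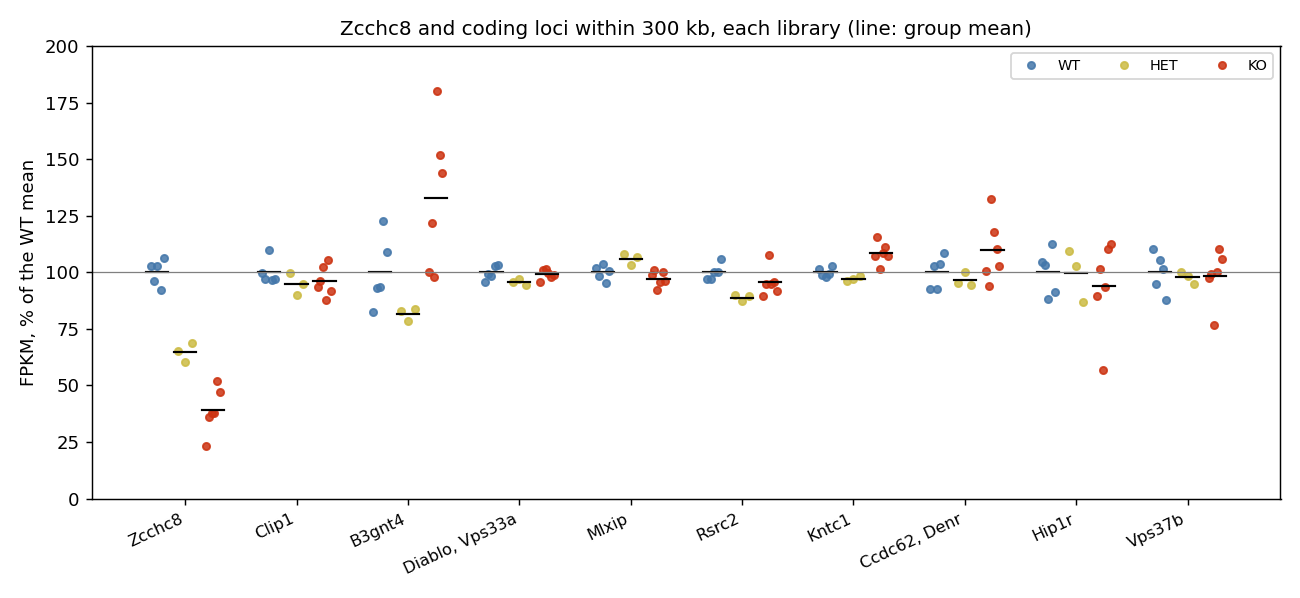
FPKM of Zcchc8 and of 9 coding loci within 300 kb as a percentage of each locus's WT mean (vertical axis), 1 point per library in WT, HET and KO, with a line at each group mean. Zcchc8 falls to 64.8% in HET and 39.1% in KO, and the low B3gnt4 locus lies at 81.7% in HET and 133% in KO, while the group means of the other 8 loci lie between 88.8% (Rsrc2 in HET) and 110% (the Ccdc62 and Denr locus in KO).

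Against WT, the members called higher in KO were not gathered at Zcchc8. Up to 100 kb away 1 of 4 members was called, from 100 to 300 kb 1 of 7, and from 300 kb to 1 Mb 5 of 35, of which 4 were higher and 1 lower. Among the 6 higher members, 4 passed the level rule only through their KO libraries, among them the only call in each nearer class. The counts by distance and side thus rest largely on loci whose selection favoured a rise in KO. The other 2, AC113504.5 and the Setd1b locus, lay beyond 300 kb. The loci farther off, given below, were chosen by the same level rule. On the lower-coordinate side 4 members were higher and 1 lower of 22, and on the higher-coordinate side 2 were higher of 24. For comparison, 13% of the members were higher and 2.17% lower. Of 72 named loci lying 1 to 5 Mb away, 16.7% were higher and 4.17% lower. Of 953 named loci farther off on chromosome 5, 133 were higher and 70 lower, and of 15141 on other chromosomes 13.2% and 6.20%. The median absolute KO difference was 0.11 log2 in the members, 0.11 in the loci 1 to 5 Mb away, and 0.12 in both the rest of chromosome 5 and the other chromosomes. Across the 46 members, which share ranges and libraries, Spearman's rank correlation between distance and absolute KO difference was -0.16. For the HET difference from WT it was -0.33, and for KO against HET -0.14, given here as a description. With the sign kept, it was -0.31 for KO against HET and -0.11 for KO against WT. Counted against HET, 2 of 4 members up to 100 kb were called higher in KO and none lower. From 100 to 300 kb 1 of 7 was higher, and from 300 kb to 1 Mb 4 were higher and 1 lower of 35. In this comparison 15.2% of all members were higher and 2.17% lower, beside 15.3% and 2.78% of named loci 1 to 5 Mb away. Farther off on chromosome 5 the shares were 13.2% and 5.98%, and on other chromosomes 12.3% and 4.81%. Of the 2 up to 100 kb, Kntc1 lost its call in 19 of the 26 alternatives, and the other passed the level rule only through KO libraries.

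**Figure D2:**
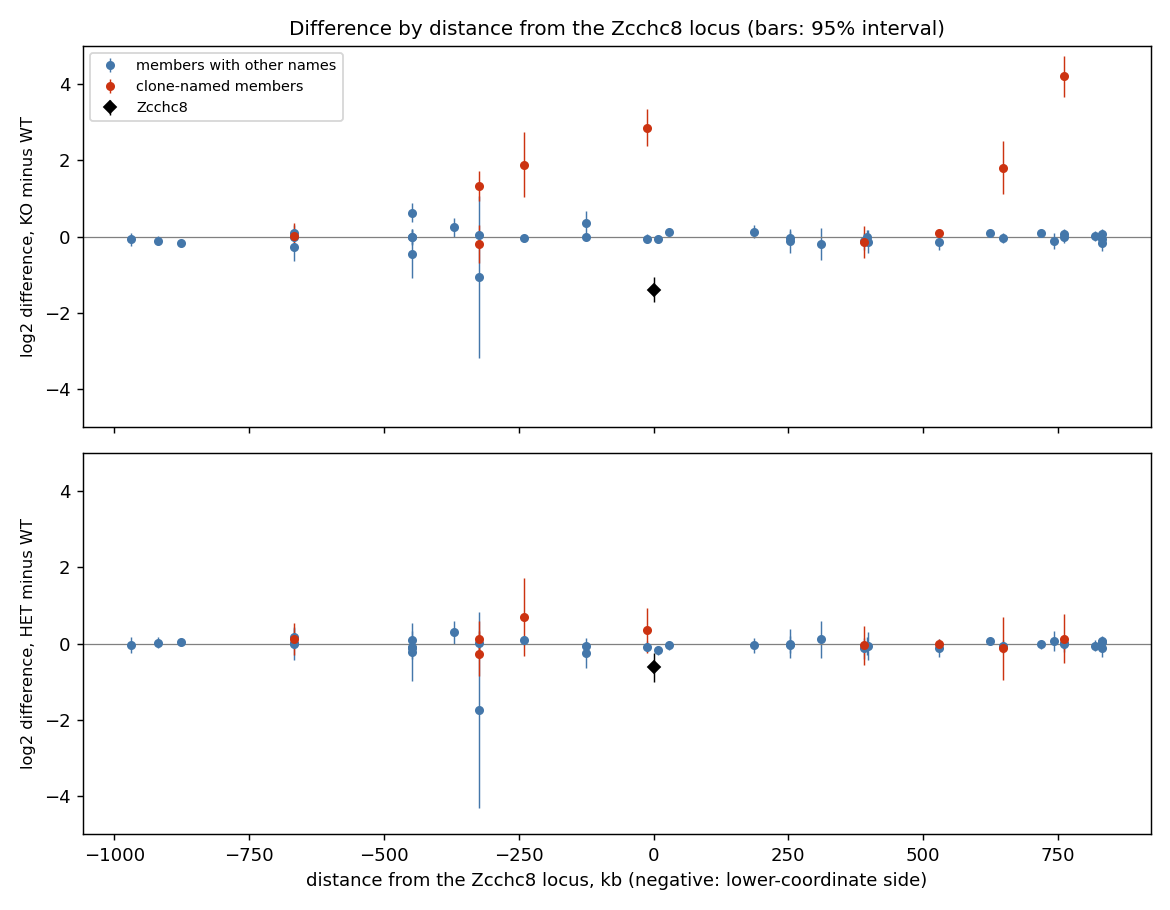
Log2 difference from WT (vertical axis) of the 46 members against distance from the Zcchc8 locus in kb (horizontal axis, negative on the lower-coordinate side), for KO above and HET below, with 95% intervals. Clone-named members are red, other members blue and Zcchc8 a black diamond. Between 13 and 762 kb, 5 clone-named members rise in KO, by 1.33 to 4.20 log2, and blue points lie mostly near 0. The wide blue interval is Gm23458, at 0 in most libraries.

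Of the 6 higher members, 5 had clone names alone. Among the 9 clone-named members 5 rose (55.6%), beside 44.4% of the 2135 clone-named loci tested in the whole series. Of these 5, 4 reached 0.5 FPKM in no WT or HET library, and so were tested only through their KO level. For such loci the level rule required at least 3 KO libraries above every WT and HET library. It thus favoured a rise in KO in advance. Of the 37 members with other names 1 rose and 1 fell, beside 8.51% and 6.98% of such loci. With the level rule applied to WT and HET libraries alone, 40 members were left, of which 2 rose and 1 fell, beside 7.58% and 6.87% of named loci passing the same rule.

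RP23-311A21.2, in the range of Snrnp35 and Rilpl1 at 762 kb (124483134 to 124532496), had the largest difference. It measured 0.120, 0.179, 0.0755, 0.276 and 0.256 FPKM in WT, 0.0811, 0.417 and 0.176 in HET, and 4.07 through 5.04 to 5.71 in KO. Every KO library was far above the highest of the others. The KO mean was 27.0 times the WT mean, and the log2 difference was 4.20 (SE 0.25). It passed the level rule only through the KO libraries, so its limma adjusted p of 2.9e-09 is given as a description. The coding genes of its range differed little: Snrnp35, of the minor spliceosome, by 0.06 log2 and Rilpl1, a Rab effector homologue, by -0.00 (95% interval -0.17 to 0.16).

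RP23-121M13.4, in the Clip1 range at 13 kb, is the called member nearest to Zcchc8. Its levels were 0.160, 0.0294, 0.225, 0.296 and 0.170 FPKM in WT, 0.290, 0.240 and 0.176 in HET, and 1.60 through 1.81 to 1.97 in KO. KO stood apart from both other groups, with a 10.1-fold higher mean than WT (2.85 log2, SE 0.23, limma adjusted p = 7.7e-08). The same limit on the p holds for it, for RP23-180G16.1 and for AC113504.2, which passed the level rule only through KO. At 648 kb, RP23-180G16.1, in the range of Sbno1 (a homologue of the fly gene strawberry notch), rose from a WT mean of 0.158 to 0.861 FPKM in KO (1.81 log2, SE 0.32, limma adjusted p = 4.4e-04). KO1 and KO3 measured 0.357 and 0.360 FPKM and the other 4 between 0.946 and 1.38, and all lay above WT, which reached 0.268. Sbno1, counted with Gm27486, differed by -0.04 log2 (95% interval -0.17 to 0.10).

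AC113504.5, in the range of Bcl7a, a subunit of BAF chromatin remodelling complexes, was at 323 kb (123332726 to 123374992). It passed the level rule without the KO libraries. Its WT levels were 0.904, 1.12, 1.29, 1.25 and 1.09 FPKM and its HET levels 0.790, 1.47 and 1.54, and in KO it ran from 1.98 through 2.93 to 4.04. The lowest KO library exceeded all others, and the mean rose 2.70-fold (1.33 log2, SE 0.19, limma adjusted p = 3.5e-05). Bcl7a itself differed by 0.03 log2 (95% interval -0.10 to 0.16). AC113504.2, in the Mlxip range, rose from a mean of 0.0796 to 0.533 FPKM (1.89 log2, SE 0.40, limma adjusted p = 0.00189). Its groups overlapped, since WT4 measured 0.297 FPKM and the lowest KO library 0.182. Against HET it was not called (limma adjusted p = 0.0834). After quantile normalization neither it (0.29 log2, limma adjusted p = 0.669) nor RP23-180G16.1 (0.48 log2, limma adjusted p = 0.398) passed against WT. In the authors' matrix, with its shift of 0.20 log2 in all tested loci, Rilpl1, Bcl7a, Mlxip and the Sbno1 locus were among the 22 members called higher. The other 4 clone-named members, AC121564.2, RP23-370G17.1, AC113474.3 and AC127339.2, had KO differences between -0.19 and 0.08 log2. RP23-370G17.1 was at -1.69 log2 after quantile normalization (limma adjusted p = 7.2e-06).

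**Figure D3:**
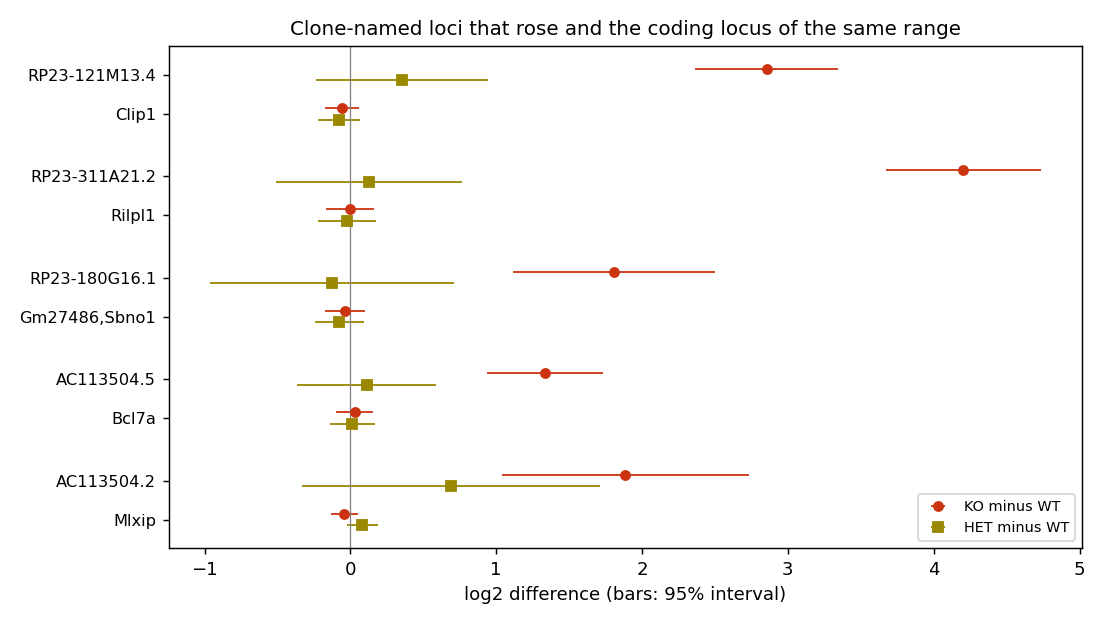
Log2 difference from WT with its 95% interval (horizontal axis) for the 5 clone-named loci that rose in KO, each above a coding locus of the same range, KO as red circles and HET as ochre squares. The KO values of the clone-named loci lie between 1.33 and 4.20, those of the coding loci between -0.06 and 0.03.

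Among members with other names, the locus that holds Setd1b with RP23-371A16.2 and RP23-371A16.3 rose, at 448 kb (range 123035769 to 123250131). Setd1b is a histone H3 lysine 4 methyltransferase. The locus measured 22.3, 16.9, 21.8, 16.9 and 17.6 FPKM in WT, 18.6, 16.5 and 17.8 in HET, and 22.7 through 29.0 to 35.0 in KO. KO1 was the lowest KO library and close to the highest WT library. The mean rose 1.56-fold (0.63 log2, SE 0.11, limma adjusted p = 3.9e-04). GENCODE places the noncoding genes 4932422M17Rik and Gm38102 on the same strand 623 and 4497 bases before Setd1b. Other noncoding genes lie in the range, among them AI480526 (123133723 to 123141666) on the opposite strand. Nothing pairs the clone names with any of them. The value is given for all 3 names together, so reads of the coding gene and of the clone-named loci cannot be told apart.

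Anapc5, a subunit of the anaphase-promoting complex, was the member that fell, at 877 kb (122787459 to 122821339). Its WT levels were 202, 202, 219, 219 and 202 FPKM, its HET levels 215, 209 and 217, and its KO levels ran from 174 through 186 to 196. All KO libraries lay below all WT and HET libraries, although the mean kept 88.6% of WT. It fell by 0.17 on the log2 scale (SE 0.04, limma adjusted p = 0.00449). In the authors' matrix the difference was -0.05 with a limma adjusted p of 0.376. Counting by separation instead of by the test, 5 members had every KO library above every WT library and 1 below, beside 15.3% and 1.99% of all tested loci.

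**Figure D4:**
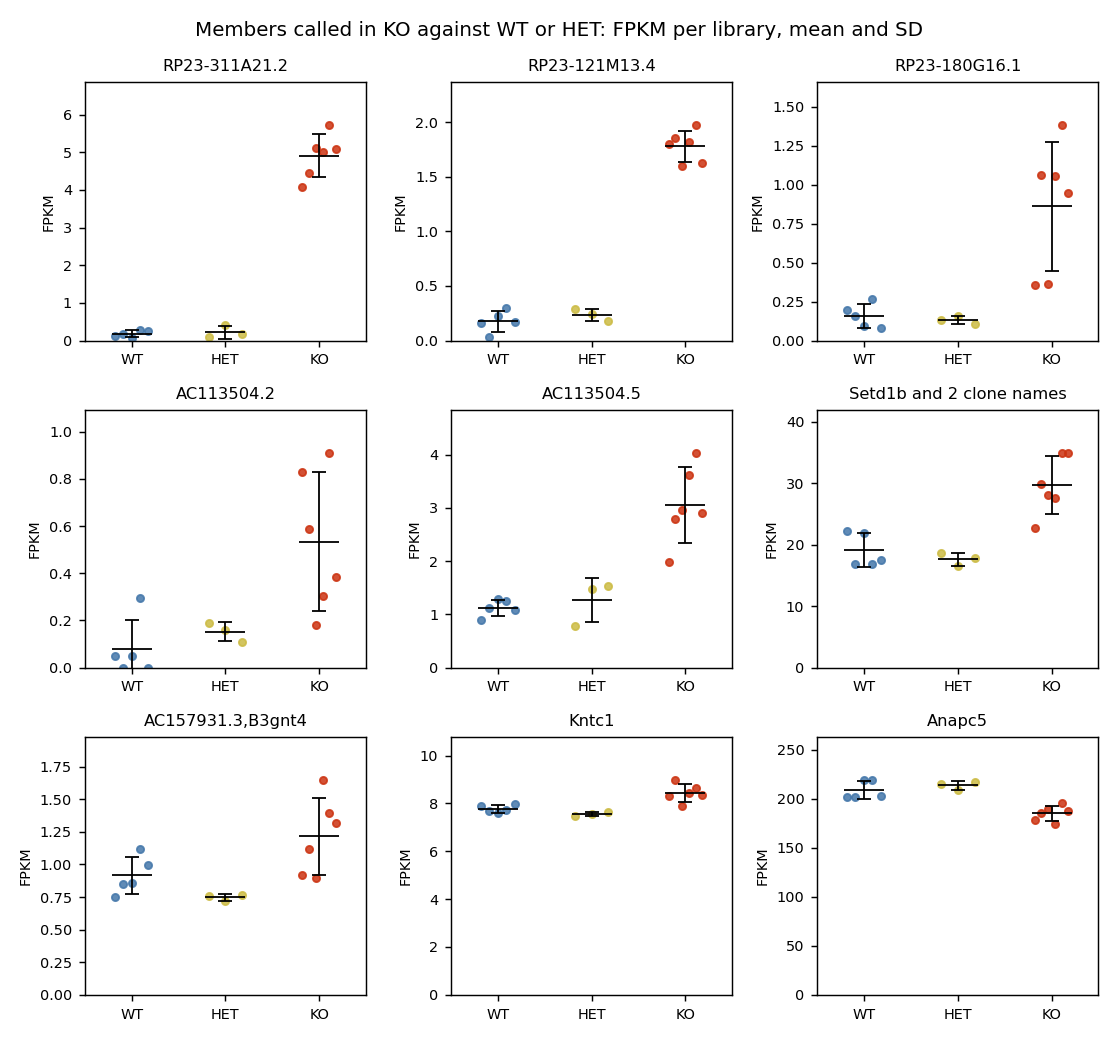
FPKM per library (points; each vertical axis starts at 0) with group mean and SD for the 9 members called in KO against WT or against HET. RP23-311A21.2 rises from a WT mean of 0.182 to 4.91 FPKM and RP23-121M13.4 from 0.176 to 1.78, while Anapc5 goes from 209 to 185. WT and KO libraries overlap for AC113504.2, for Kntc1 and for the B3gnt4 locus.

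By role, calls were few outside the clone-named loci. In the whole series, 8.51% of tested loci with other names were higher in KO against WT and 6.98% lower. The shares of all tested loci (24.6%) and of named loci (19.5%) include clone-named loci. Of 8 chromatin and transcription members, 1 rose in KO, the Setd1b locus. The most abundant of them, Cdk2ap1, a CDK2-associated protein found in the NuRD complex, had means of 284.6, 297 and 303 FPKM in WT, HET and KO (0.09 log2 against WT, limma adjusted p = 0.0916). Without WT4 its limma adjusted p was 0.0496. Of the 6 RNA processing and translation members none was called, and all 6 had a 95% interval within 0.5 log2. Rsrc2 was the most abundant among them. Of 4 cell division and ubiquitin ligase members, Anapc5, the most abundant, fell. None of 8 membrane traffic and cytoskeleton members was called. Tmed2, a cargo receptor of early secretory vesicles, was at 102 ± 5.19 in WT (SD, n = 5) and 103 ± 8.75 FPKM in KO (SD, n = 6).

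Of 5 channel, pump, receptor and signalling members none was called, with differences from -0.29 to -0.00 log2. The scaling moved them: P2rx4 and Abcb9 were called lower after quantile normalization, and Camkk2 and Tmem120b higher in the authors' matrix. Camkk2, a calcium-dependent kinase kinase, was the most abundant, with means of 11.3 and 10.5 FPKM in WT and KO (-0.10 log2, limma adjusted p = 0.187). In the authors' matrix its difference was 0.20 with a limma adjusted p of 0.0464. Orai1, the pore of the store-operated calcium channel, had means of 6.59 and 5.56 FPKM, and KO3 was its lowest library at 2.94. Its difference was -0.29 log2, and 0.09 in the authors' matrix. Abcb9, a lysosomal peptide transporter, had means of 1.28 and 1.13 FPKM (-0.19 log2, and -0.80 with a limma adjusted p of 0.00378 after quantile normalization). The cilium members were Wdr66 (0.25 log2, limma adjusted p = 0.144) and the locus shared by Ccdc62 and Denr. In the authors' matrix both were called higher (0.61 log2, limma adjusted p = 0.00569, and 0.25 log2, limma adjusted p = 0.0132), and after quantile normalization Wdr66 was at -0.07 log2. Of 4 proteasome, mitochondrial and metabolic members none was called against WT. The largest negative differences were those of Gm23458 and Rhof, and neither passed the test. Gm23458 was listed at 0 in 11 of 14 libraries and measured 2.59 and 1.45 FPKM in WT1 and WT2 and 1.62 in KO5. Rhof, counted with AC158114.3, ranged from 7.05 to 14.5 FPKM in WT and from 3.77 to 12.3 in KO (-0.45 log2, limma adjusted p = 0.323). The 13 members not described singly had KO differences between -0.18 log2 for Ddx55, an RNA helicase, and 0.09 for Setd8, a histone H4 lysine 20 methyltransferase. Among them Kdm2b, a histone demethylase of a Polycomb complex counted with 2 clone names, had means of 42.5, 42.8 and 42.2 FPKM in WT, HET and KO.

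In HET heads no member passed the test against WT, beside 0.00549% of all tested loci, a single locus. Zcchc8 itself, at 64.8% of its WT mean, did not pass in this fit either, so a member's change of that size could be missed. By limma without adjustment, Rsrc2 alone had a p under 0.05, a count with no share of all tested loci beside it. The median difference was -0.02 log2 in the members and -0.00 in all tested loci, and 33 members had a 95% interval within 0.5 log2 of 0. Groups did not overlap for Rsrc2, lower in HET, and for the ubiquitin ligase gene Rnf34, higher, beside 1.43% of all tested loci lower without overlap and 1.05% higher. Rnf34 measured 15.7, 14.4, 14.2, 15.2 and 15.9 FPKM in WT and 16.8, 17.8 and 16.7 in HET (0.18 log2, 95% interval -0.06 to 0.42, limma adjusted p = 1). The 5 largest HET differences upward were AC113504.2 (0.69 log2), RP23-121M13.4 (0.36), Wdr66 (0.30), Rnf34 (0.18) and RP23-311A21.2 (0.13). The largest downward were Gm23458 (-1.74), RP23-370G17.1 (-0.27), the B3gnt4 locus (-0.25), the Rhof locus (-0.22) and Rsrc2 (-0.17).

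The comparison of KO with HET shares its KO libraries with that of KO and WT. Against HET, 7 members were higher in KO and 1 lower. These 17.4% stood beside 22.3% of all tested loci, 17.9% higher and 4.36% lower. Of the 40 members that passed the level rule without the KO libraries, 4 were higher and 1 lower. The share of all named loci passing the same rule is not given for this comparison, so this count has no like background. RP23-311A21.2 was higher by 4.07 log2 (limma adjusted p = 3.5e-08), RP23-121M13.4 by 2.50, RP23-180G16.1 by 1.93, AC113504.5 by 1.22 and the Setd1b locus by 0.73. The first 3 of these reached 0.5 FPKM in no WT or HET library, so their selection favoured a rise in KO and the p is given as a description. Kntc1 and the B3gnt4 locus made up the rest of the higher members, and Anapc5 was lower by 0.21 (-0.21 log2, limma adjusted p = 0.00431). This call on Anapc5 was lost with the replicate block (-0.19 log2, limma adjusted p = 0.0565) and in the authors' matrix (-0.10 log2, limma adjusted p = 0.187). Zcchc8 was lower in KO than in HET by 0.77 on the log2 scale (-0.77, limma adjusted p = 0.00381).

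The 39 named loci of the window that missed the level rule were low almost throughout. Of these, 34 were under 0.5 FPKM in all libraries, 8 of them at 0 throughout. The other 5 reached 0.5 in 1 or 2 libraries. Of these Gm24682, named here after its values were seen, had 11.9 FPKM in WT3, 5.55 in HET4 and 0 elsewhere. Without a filter on low values 31 of them could be tested, and 2 were called higher in KO, also named after their values were seen. The first was a locus named RP23-31J24.2, at most 0.403 FPKM. The other was a second, low locus named Psmd9, at 0 in all WT and HET libraries and at most 0.310 FPKM in KO.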

How the data were processed

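RNA of E12.5 heads was measured in 14 libraries prepared with a stranded kit from polyadenylated RNA, per the labels' protocols. The build is mm10 and the tools are TopHat2 2.1.0, Cuffdiff, Partek, bcl2fastq and FastQC 0.10.0, per the submitters' processing notes, which state no roles. No header or label names the gene models, the strand setting or any filter. The authors deposited 1 table of FPKM values per library, and a matrix of log2 FPKM values that served only as an alternative input. The tables hold no read counts, so the depth of each library is unknown and no counting interval is given. Clone-named and shared loci, antisense partners and near-identical copies cannot be separated further.

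FPKM values were analysed as log2(FPKM + 0.1), which understates changes of low loci. Loci with at least 0.5 FPKM in at least 3 libraries were kept, whatever their group. All 14 libraries entered 1 limma-trend fit with robust moderation (limma 3.58.1, R 4.3.3), with no covariate and Benjamini-Hochberg adjustment over 18217 loci. Zcchc8 levels were compared by exact permutation in Python 3.11.15 (pandas 2.3.3, numpy 2.4.6). Rank correlations were taken with scipy 1.17.1, and plots drawn with matplotlib 3.10.9. The fit was tested on simulated data. Distances run between nearest range ends. GENCODE M21 (mm10) supplied positions, strands and sequences, and holds a name of 36 of the 46 members.

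The loci named are Zcchc8, the 5 members nearest to it on each side, all called members, the 5 largest differences each way in KO and HET against WT, and the most abundant member of each role. The members, roles and lists were chosen with earlier results of these data known. Nothing says that each library is a separate embryo, so p-values measure the spread between these samples, which may be technical. Alternatives were other pseudocounts, filters, scalings, inputs, fits, weights, a replicate block and leaving out libraries.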

Additional observations from a re-analysis of the deposited data

Results flagged for a closer look

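In 54 sets of libraries (a locus in WT or in KO) the highest or lowest library was compared with the others, and 4 stood apart by Dixon's criterion, where chance alone gives about 1 in 20. Gm23458 measured 1.62 FPKM in KO5 and 0 in the other KO libraries. AC113504.2 measured 0.297 FPKM in WT4 and 0 to 0.0515 in the other WT libraries. Clip1 measured 27.4 FPKM in WT3 against 24.0 to 24.8 in the other WT libraries. Rsrc2 measured 91.8 FPKM in KO3 against 76.1 to 81.4 in the other KO libraries.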

How the results depend on the processing

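Among 26 alternatives, KO against WT gave 6 higher and 1 lower member in most. Shares of all tested loci called are given for the main fit alone, so the counts under alternatives have no background beside them. The authors' matrix gave 22 and 0, quantile normalization 4 lower, and the level rule on WT and HET libraries alone 2 higher. Leaving out 1 library gave 6 to 8 higher and 1 to 2 lower, with 8 and 2 without KO3. KO1 and KO3 left out together gave 8 higher and 1 lower, and called Kntc1 (0.14 log2, limma adjusted p = 0.0265) and the B3gnt4 locus (0.53, limma adjusted p = 0.0101). This alternative and the WT and HET filter were chosen after seeing the data. In the main fit, KO against HET gave 7 higher and 1 lower. Without a filter on low values, with the common median or with the replicate block, 6 were higher. With the stricter filter, or in a fit of these groups alone, 5 were higher. Quantile normalization gave 4 and 3, the authors' matrix 13 and 0, and the WT and HET filter 3 higher. The common median, array weights and the omission of KO1 and KO3 gave 2 lower, and leaving out 1 library 5 to 8 higher and 1 lower. HET against WT gave 0 throughout. The median KO difference was 0.22 in the authors' matrix, where all tested loci shifted by 0.20, and 0.0356 without KO1 and KO3, and it lay between -0.0346 and 0.00185 without single libraries. The median HET difference was -0.00468 with a common median, -0.00878 with quantiles made equal, 0.0318 from the authors' matrix, and -0.00560 with the replicate block. Without single libraries it ran from -0.0307 to -0.000857. Of 37 single-locus differences, 15 turned direction under at least 1 alternative, most of them not called. In KO against WT these include Camkk2 (0.20) and Mlxip (0.25), which were called higher in the authors' matrix, and also Orai1 (0.09) there, Wdr66 (-0.07) after quantile normalization, and Rnf34 (-0.02) without KO1 and KO3. In KO against HET the B3gnt4 locus turned after quantile normalization (-0.10). The causes were not tested. Same-numbered libraries did not deviate together (correlations -0.114 to 0.1), so their numbers are not taken as pairs. With the numbers as a replicate block, KO against WT kept counts of 6 and 1, while KO against HET gave 6 and 0. Depth is unknown, so levels near 0 carry no limit of detection.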

Other observations

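The window also held 5 loci without a gene name, of which 3 passed the level rule, and each of these lay just outside the 5′ end of a gene. The locus at 122847513 to 122849938, 110 bases from Rnf34, measured 0.706, 0.228, 0.340, 0.400 and 0.650 FPKM in WT, 0.468, 0.118 and 0.370 in HET, and 1.92 to 2.55 in KO. All KO libraries lay above the others (2.19 log2 against WT). The locus at 123721214 to 123721876, 114 bases from the 5′ end of Zcchc8 itself, was at 0 in 4 WT libraries and in all HET libraries and at 0.0753 FPKM in WT5. In KO it measured 0.331 to 1.10 FPKM. The locus at 124438415 to 124439593, 337 bases from the gene listed as Setd8 in the files and Kmt5a in GENCODE, was listed at 0 in all WT and HET libraries and measured 0.536 to 2.05 FPKM in KO. All 3 passed the level rule only with KO libraries counted, and no test is given for them. The loci near Zcchc8 and Setd8 reached 0.5 FPKM in no WT or HET library, so their selection favoured a rise in KO. The locus near Rnf34 reached 0.5 FPKM in 2 WT libraries and in no HET library. It too was admitted through KO libraries, so its difference is given as a description. The pair below the level rule were a locus 78 bases from Vps33a, at 0 to 0.0188 FPKM in WT and 0.0333 to 0.643 in KO, and a locus seen only in KO6, at 1.45 FPKM. All 5 lack a name, so they are not among the 46 members.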
